A study of Mus musculus with 15 samples.

Results

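Endothelial cells that express endomucin (Emcn, a surface sialomucin) were compared with those that do not, both sorted from the same kind of primary mouse bone marrow culture before its first passage (P0). There were 2 libraries of P0 Emcn+ cells and 2 of P0 Emcn- cells, 4 of the 15 bulk RNA-seq libraries of the series. The members are all genes with a level of at least 5 counts for each 1000000 of the library total (CPM) in both libraries of a side, 11301 of the 44674 genes in the table. Of these, 9450 reached the limit on both sides, 868 in P0 Emcn+ only and 983 in P0 Emcn- only. By the methods, whole marrow of adult Tie2-CreERT2;Rosa26-tdTomato mice, mostly 4 to 6 months old, was cultured in an endothelial growth medium for about 14 days. Tamoxifen had been given on 5 days at an age of 2 to 7 weeks, so that cells using the Tie2 (Tek) promoter at that time, and their progeny, kept the red reporter. Both sides were then sorted as viable, CD45-, tdTomato+ cells and parted by Emcn staining alone. The labels give both the genotype WT, the tissue BM and the cell type BMEC (bone marrow endothelial cell). Every library therefore holds cells chosen by a reporter that records past use of the Tie2 promoter. P0 Emcn+ cells were also chosen by the presence of Emcn, itself an endothelial protein, and P0 Emcn- cells by its absence. No further endothelial protein was used in the sort of either side. Replicate 1 of each side came from 1 batch and replicate 2 of each side from another (batches d and a in the labels), so each batch holds 1 library of each side. The study describes its RNA-seq replicates as independent biological samples, grouped in batches, and neither the methods nor the labels tie a library to an animal.

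Endothelial cells line blood vessels, hold together through VE-cadherin and PECAM1, and answer to growth factors and angiopoietins through receptors such as VEGFR2 and TIE2. In the marrow most of them form sinusoids, wide and leaky capillaries that take up waste molecules through stabilin receptors, while arterioles carry another set of genes. Around them lie stromal cells of mesenchymal kind, which make collagen, carry PDGF receptors and release factors that hold blood stem cells. Emcn is high on marrow sinusoids and low on arterioles.

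The defining markers separated both sides. Emcn, the gene of the sorted protein, had 631 and 798 CPM in P0 Emcn+ replicates 1 and 2 and 12.7 and 2.52 CPM in P0 Emcn-. Because the sort used it, this value checks the labels and is no finding. Its adjusted p was 0.0087, and 0.0542 without P0 Emcn- replicate 2. Cdh5, which encodes VE-cadherin, had 6222 and 5118 CPM in P0 Emcn+ against 119.5 and 6.35 CPM in P0 Emcn-, and Pecam1 had 2474 and 2264 against 47.8 and 5.14 CPM. The 2 sides did not overlap for either gene, and the P0 Emcn- libraries stood well apart from each other. Stab2, a scavenger receptor of sinusoids, had 845 and 702 CPM in P0 Emcn+ against 11.1 and 1.92 CPM in P0 Emcn-. The reverse held for Pdgfra, a receptor of mesenchymal cells, with 14.4 and 18.6 CPM in P0 Emcn+ against 1147 and 1566 CPM in P0 Emcn-. Serpinf1, which encodes the secreted anti-angiogenic factor PEDF, had 9.92 and 12.9 against 921 and 785 CPM. Col1a1, a chain of type I collagen, had 57.4 and 64.3 CPM in P0 Emcn+ against 5783 and 2891 CPM in P0 Emcn-. Decorin (Dcn), a matrix proteoglycan, had 8.78 and 43.5 against 1108 and 2478 CPM. So in RNA, P0 Emcn+ libraries carried the markers of the label, whereas P0 Emcn- libraries had fibroblast markers at high levels and endothelial ones at low levels. By immunostaining of P0 cultures, the study found VE-cadherin and PECAM1 protein also on the colony-forming cells, which lacked Emcn. It also reports genes of mesenchymal cells as enriched in P0 Emcn- cells. The libraries are named here by their sort and not by a cell type. Tek itself, whose promoter drove the reporter, was nearer between the sides, with 168 and 125 and 20.3 and 49.4 CPM.

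The stretch around the start site of 4 of these markers is shown because their levels differed in opposite directions. RefSeq sequences on GRCm38.p6 run from 250 bases before to 50 bases after the start, in the direction of transcription. Capitals mark 3 short motifs looked for on both strands, AGGAAG (a core bound by ETS factors), TGANTCA (AP-1) and GGAATG (TEAD). The coordinates are chr3:137340828-137341127 on the plus strand for Emcn, chr10:87007893-87008192 on the minus strand for Stab2, chr5:75152001-75152300 on the plus strand for Pdgfra and chr11:75422574-75422873 on the minus strand for Serpinf1.
Emcn: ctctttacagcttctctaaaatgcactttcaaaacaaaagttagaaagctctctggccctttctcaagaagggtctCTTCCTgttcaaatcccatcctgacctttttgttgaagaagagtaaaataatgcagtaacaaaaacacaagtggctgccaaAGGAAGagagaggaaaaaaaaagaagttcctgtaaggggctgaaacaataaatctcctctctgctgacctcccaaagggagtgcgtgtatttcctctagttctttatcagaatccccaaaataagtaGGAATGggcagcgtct
Stab2: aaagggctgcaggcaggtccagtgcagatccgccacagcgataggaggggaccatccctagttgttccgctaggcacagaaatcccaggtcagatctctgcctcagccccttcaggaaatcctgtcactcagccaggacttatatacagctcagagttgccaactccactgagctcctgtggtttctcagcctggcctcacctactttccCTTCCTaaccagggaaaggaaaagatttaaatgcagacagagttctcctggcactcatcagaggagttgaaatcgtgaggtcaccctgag
Pdgfra: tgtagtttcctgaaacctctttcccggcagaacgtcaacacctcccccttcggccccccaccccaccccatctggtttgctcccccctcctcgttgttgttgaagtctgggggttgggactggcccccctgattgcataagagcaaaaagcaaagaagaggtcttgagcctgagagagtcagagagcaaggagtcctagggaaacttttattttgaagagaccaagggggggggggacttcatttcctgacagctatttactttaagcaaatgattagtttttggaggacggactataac
Serpinf1: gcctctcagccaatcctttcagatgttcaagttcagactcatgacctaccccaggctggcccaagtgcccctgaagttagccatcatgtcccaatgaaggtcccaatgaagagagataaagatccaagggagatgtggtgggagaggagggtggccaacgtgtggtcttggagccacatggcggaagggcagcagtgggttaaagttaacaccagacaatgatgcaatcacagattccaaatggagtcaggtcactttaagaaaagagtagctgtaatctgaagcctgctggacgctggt
The Emcn window held 2 ETS motifs and 1 TEAD motif, the Stab2 window held 1 ETS motif, and the windows of Pdgfra and Serpinf1 held none of the 3. Of windows searched but not printed, that of Robo4 held 1 ETS motif and that of Prrx1 held 1 ETS and 1 TEAD motif. Only exact matches were counted, so a window without AGGAAG may hold other sequences that ETS factors bind. Among 12572 tested genes with such a window, 33.4% held the ETS motif, 5.39% the AP-1 motif and 12.4% the TEAD motif. For 1068 genes called higher in P0 Emcn+ the shares were 37.7%, 8.24% and 14.04%. For 1488 genes called higher in P0 Emcn- they were 30.2%, 7.46% and 14.5%. The ETS motif was thus the one of the 3 whose share lay above that of all genes for one direction and below it for the other. A match is a description of letters and says nothing of binding.

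A gene counts as called where edgeR's quasi-likelihood test, with the batch as a block, gave a p under 0.05 after Benjamini-Hochberg adjustment and the log2 fold change exceeded 1.5 in size. Each adjusted p here is from that test. Of 19401 genes tested, 3772 were called (19.4%), 1552 higher in P0 Emcn+ (8.00% of those tested) and 2220 higher in P0 Emcn- (11.4%). Among the 11301 expressed genes the calls were 1062 and 1111. Of these, 521 and 681 were in genes that reached the limit only on the side where they were higher. The limit favours that direction for such genes, so the near balance of the 2 counts is no finding. Outside the expressed genes, 490 and 1109 calls were in 8100 tested genes that reached the limit of 5 CPM on neither side. The called differences were large. Their median log2 fold change was 3.10 for genes higher in P0 Emcn+ and -3.65 for genes higher in P0 Emcn-. A size above 3 was reached by 804 and 1359 genes and a size above 5 by 340 and 620. Of the genes expressed on both sides, 541 calls favoured P0 Emcn+ and 430 favoured P0 Emcn-, and 8479 were not called. For 5863 of the genes expressed on both sides the 95% confidence interval of the log2 fold change lay within 1 of 0 in either direction, so a difference above that size is outside their intervals. When each of the 4 libraries was left out in turn, 894 and 1380 of the called genes kept their call every time.

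The 2 batches gave like differences, with departures that lay mostly in P0 Emcn-. Within a batch, 856 expressed genes had a log2 ratio above 1.5 in both batches and 940 below -1.5 in both, and 852 and 937 of these were called. The calls rest on the same libraries, so they are no separate check. Of the expressed genes, 868 reached the limit in P0 Emcn+ only and 983 in P0 Emcn- only. For those genes the limit itself favours ratios of like sign in both batches. In opposite directions beyond 1.5 were 13 genes. The sign of the ratio was the same in both batches for 77.3% of expressed genes. P0 Emcn- replicates differed by over 1.5 log2 units in 595 expressed genes, 437 of them higher in replicate 1, against 138 genes between P0 Emcn+ replicates. Library totals were 31555985 and 25875548 counts for P0 Emcn+, with 39718807 and 9914620 for P0 Emcn-, so P0 Emcn- replicate 2 was the shallowest. A count of 0 allows 0.0755 to 0.303 CPM at these depths (3 counts, counting error only). Mitochondrial transcripts made up 2.45% to 3.45% of counts. The part of depth in these departures was not tested.

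**Figure D1:**
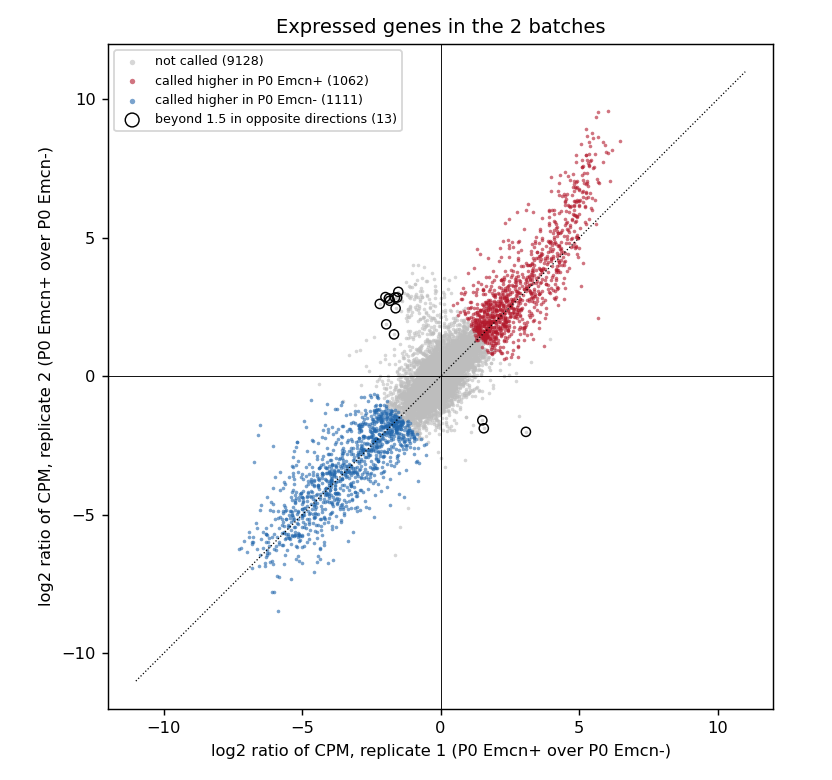
Log2 ratio of CPM (P0 Emcn+ over P0 Emcn-, 0.5 CPM added) of each expressed gene in replicate 1 (x axis) and replicate 2 (y axis), 1 point per gene, with the dotted line marking equal ratios. Called genes (1062 red, 1111 blue) lie in the upper right and lower left, and the 13 genes circled in black, beyond 1.5 in opposite directions, lie in the other corners.

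The 12 genes that led in P0 Emcn+, outside the marker lists of the study, included several of the endothelial surface. Cyp4b1, a cytochrome P450, had 705 and 808 CPM in P0 Emcn+ against 7.33 and 1.72 CPM in P0 Emcn- (a log2 difference of 7.33, SE 0.81, adjusted p = 0.00027). Its gene lies on chromosome 4 from 115624725 to 115647723 of GRCm38. Mmrn1, which encodes multimerin 1, a binding protein of coagulation factor V, had 132 and 175 against 1.41 and 0.807 CPM (log2 fold change 7.08, SE 0.49). For both genes the replicates of P0 Emcn+ were within a narrow range and far above P0 Emcn-. The related Mmrn2, a ligand of CD93 in vessels, had 397 and 461 against 6.37 and 0.807 CPM. Adgrl4 (ELTD1), an adhesion receptor of angiogenic vessels on chromosome 3 from 151437887 to 151545086, had 1132 and 917 CPM in P0 Emcn+ against 16.8 and 0.706 CPM in P0 Emcn-. Adgrg3, another adhesion receptor, had 135 and 63.4 against 2.09 and 0 CPM. The rule that picked the leaders favours genes whose sides lie apart, so the gap for these receptors and multimerins is no further finding. Plvap, the protein of diaphragms in fenestrae and caveolae, had 551 and 443 CPM in P0 Emcn+ against 8.31 and 1.11 CPM in P0 Emcn-. Robo4, the endothelial roundabout receptor, had 713 and 734 against 14.2 and 0.605 CPM (log2 fold change 6.57, SE 1.497), with an adjusted p of 0.0503 and so no call without P0 Emcn+ replicate 1. Dgkk, a diacylglycerol kinase, had 10.5 and 45.2 against 0.176 and 0.202 CPM. Among the other leaders, Tmem252 had 48.2 and 43.4 against 0.604 and 0 CPM, Tmem132e had 28.1 and 46.6 against 0.478 and 0.101 CPM, and Cdh5 had a log2 fold change of 6.74 (SE 1.80, adjusted p = 0.0191). Cdh5 lost its call without replicate 1 of P0 Emcn+ or replicate 2 of P0 Emcn- (adjusted p of 0.0878 and 0.0725), and its P0 Emcn- levels lay far apart.

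The 12 leaders of P0 Emcn- were of several kinds, among them chemokines, a mesenchymal transcription factor, neighbouring imprinted genes, a receptor and genes of other roles. Prrt2, a membrane protein known from neurons, had no count in either P0 Emcn+ library and 12.6 and 14.9 CPM in P0 Emcn-, at least 249.6-fold higher when set against 3 counts over both P0 Emcn+ libraries. Crocc2, a rootletin-like gene, had 0.254 and 0.0386 CPM in P0 Emcn+ against 48.2 and 119.5 CPM in P0 Emcn-. Ccl11, the eosinophil attractant eotaxin, had 0.0634 and 0.0773 against 18.7 and 34.1 CPM. Cxcl13, a B cell attractant, had 0.0951 and 0.464 against 28.4 and 84.3 CPM. For each of these the P0 Emcn+ libraries were near or under the limit that a count of 0 allows, up to a few times it. Has2, the hyaluronan synthase of connective tissue, had 0.127 and 0.116 CPM in P0 Emcn+ against 16.1 and 28.3 CPM in P0 Emcn- (a log2 difference of -7.37, SE 0.30, adjusted p = 3.15e-06). Agtr1a, the angiotensin II receptor, had 0.0317 and 0.425 against 18.3 and 82.1 CPM. Prrx2, a homeobox factor of mesenchyme, had 0.158 and 0.271 against 24.6 and 40.2 CPM, and Mab21l1 had 0.0634 and 0.309 against 19.2 and 41.5 CPM. The replicates of P0 Emcn- were alike for Has2 and the homeobox gene, and P0 Emcn- replicate 2 was the higher for Agtr1a. Arsi, an arylsulfatase, had 0 and 0.155 against 10.5 and 14.9 CPM. Olfml1 rested on 2 counts over both P0 Emcn+ libraries, a ratio of 342 with an exact 95% counting interval of 94.4 to 2835. Dlk1 and Meg3, which complete the group, are neighbours and are given with the imprinted genes.

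Gene lists were read against the shares called among all genes tested, 8.00% in the direction of P0 Emcn+ and 11.4% in that of P0 Emcn-. The lists were chosen with earlier results of these data known, so their shares are descriptions and no independent test. They count every tested member, also those under the expression limit. Expressed were 6 of 16 osteolineage genes, 22 of 44 collagens and 14 of 37 serpins. Of 32 pan-endothelial genes, 29 were called higher in P0 Emcn+, none lower (none at an unadjusted p under 0.05, none by DESeq2) and 3 were not called, with a median log2 fold change of 6.05 where the median of all genes tested was -0.04. The count was 21 without P0 Emcn+ replicate 1, 25 without P0 Emcn- replicate 2, 28 without P0 Emcn+ replicate 2, and still 29 without P0 Emcn- replicate 1. Endothelial transcription factors were higher in P0 Emcn+ in 18 of 25 and in P0 Emcn- in none (1 at an unadjusted p under 0.05, 1 without a fold change limit, none by DESeq2). Fewer of them were called higher in P0 Emcn+ whichever library was left out. Erg, an ETS factor that maintains endothelial identity, had 270.4 and 259 CPM in P0 Emcn+ against 6.17 and 0.504 CPM in P0 Emcn-. Sox18 had 217 and 158 against 5.06 and 0.202 CPM and Sox17 had 214 and 112 against 4.99 and 0.202 CPM, SOX factors of vessel and lymphatic development. Bcl6b, a repressor of endothelial cells, had 434 and 289.7 against 10.1 and 1.01 CPM. For all 4 factors the 2 sides were far apart, and P0 Emcn- replicate 2 was the lowest library. Sox17 was not called without P0 Emcn+ replicate 1 (adjusted p = 0.0622).

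**Figure D2:**
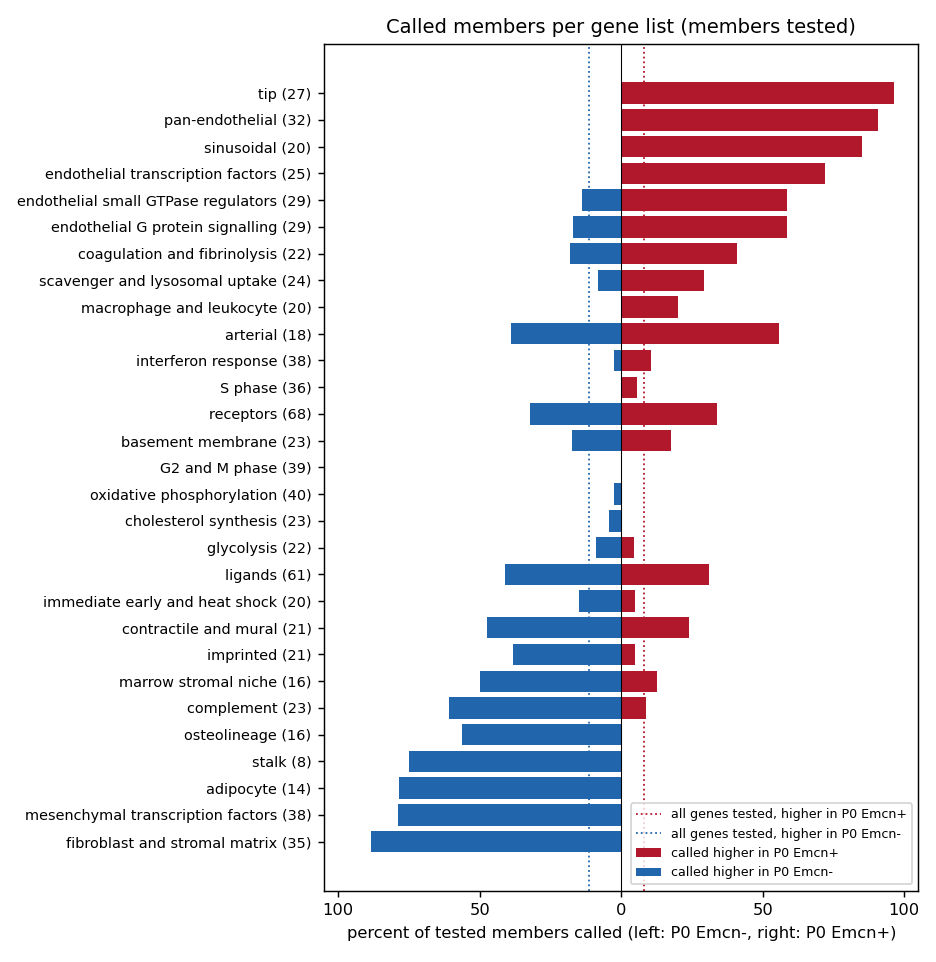
Percent of the tested members of each gene list called higher in P0 Emcn+ (red, to the right) or in P0 Emcn- (blue, to the left), with the number tested in brackets and dotted lines at 8.00% and 11.4%, the shares of all genes tested. Endothelial lists stand at the top with up to 26 of 27 members, and fibroblast matrix genes at the foot with 31 of 35. The lists were chosen with earlier results of these data known.

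The level that endothelial genes kept in P0 Emcn- was of a like size for most of them in replicate 1 and lower, with a wider range, in replicate 2. In replicate 1 the CPM in P0 Emcn- was a median 2.46% of that in P0 Emcn+ (quartiles 2.12% and 4.69%, 32 genes). In replicate 2 the median was 0.312% (quartiles 0.127% and 3.43%). In each batch 26 of the 32 genes were below 10%, and a band of genes from Adgrl4 (1.48%) to Kdr (2.53%) kept about the same share in replicate 1. Above that band stood a few genes in both batches. Flt1, the VEGF decoy receptor VEGFR1, had 25.99 and 47.96 CPM in P0 Emcn+ against 70.4 and 8.88 CPM in P0 Emcn-. Ramp2, a partner of the adrenomedullin receptor, had 87.9 and 85.6 against 23.5 and 114 CPM, and Vwf, von Willebrand factor, had 4.82 and 6.72 against 3.5 and 3.33 CPM. These are the 3 members that were not called, with 95% intervals of their log2 fold changes from -2.27 to 2.48, -0.41 to 1.77 and -0.87 to 2.11. Without P0 Emcn- replicate 2, Ramp2 was called higher in P0 Emcn+ (adjusted p = 0.00125). Tek kept 12.1% and 39.7% and Eng (endoglin, a TGF-beta coreceptor) 13.7% and 12.4% of their P0 Emcn+ level. Clec14a, a C-type lectin of vessels, kept 26.5% and 6.41% and was not called without P0 Emcn+ replicate 1 (adjusted p = 0.106), P0 Emcn+ replicate 2 (0.127) or P0 Emcn- replicate 2 (0.22). Read the other way, 35 fibroblast matrix genes had in P0 Emcn+ a median 1.59% of their P0 Emcn- level in replicate 1 (quartiles 0.992% and 3.54%) and 2.03% in replicate 2 (quartiles 1.51% and 8.43%). Fewer cells of a type and less RNA per cell cannot be told apart in such bulk libraries.

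**Figure D3:**
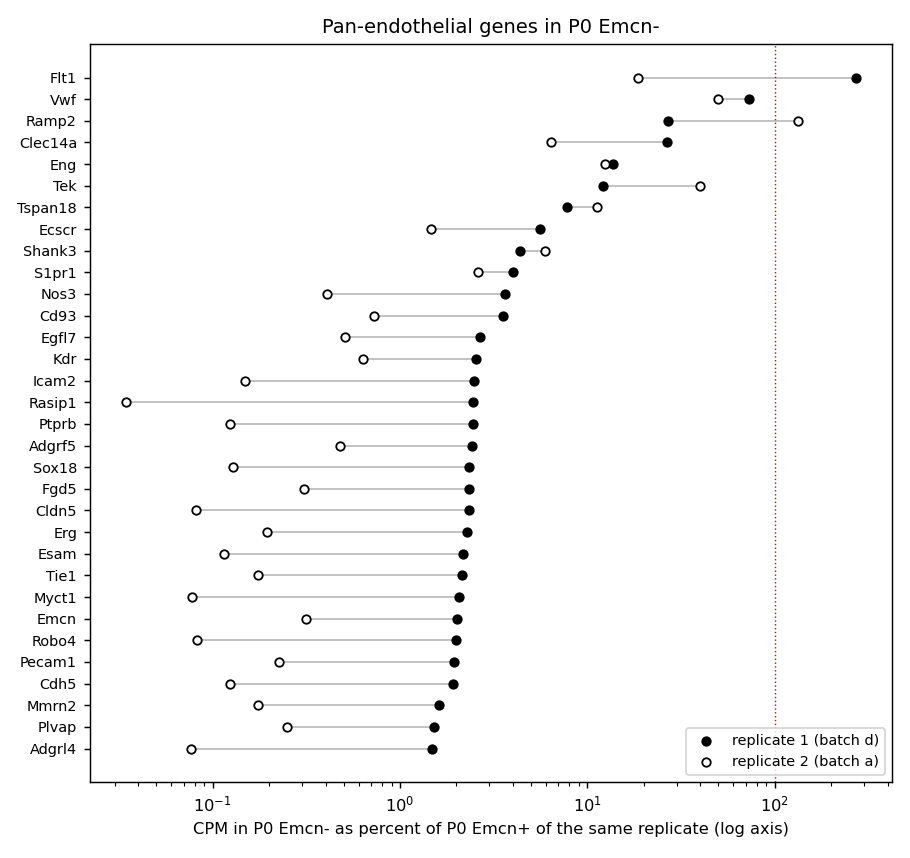
CPM in P0 Emcn- as a percent of the CPM in P0 Emcn+ of the same replicate, on a log axis, for 32 pan-endothelial genes, with filled points for replicate 1, open points for replicate 2 and grey lines joining them. Most filled points stand in a column near 2%, most open points lie to the left of it, and Flt1, Vwf and Ramp2 are highest.

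The called genes of mesenchymal identity lay on the P0 Emcn- side. Of 38 mesenchymal transcription factors tested, 30 were higher in P0 Emcn- and none in P0 Emcn+ (1 at an unadjusted p under 0.05, none by DESeq2). Tbx18, a T-box factor of mural and stromal progenitors, had 0.824 and 1.08 CPM in P0 Emcn+ against 77.9 and 87.5 CPM in P0 Emcn- (SE 0.29 about a log2 fold change of -6.41). Six2 rested on 3 counts in P0 Emcn+, a ratio of 93.7 with a counting interval of 31.7 to 458. Fibroblast and stromal matrix genes were higher in P0 Emcn- in 31 of 35 (median log2 fold change -5.89) and in P0 Emcn+ in none (2 at an unadjusted p under 0.05, 1 by DESeq2). Postn, which encodes the matricellular protein periostin, had 11.1 and 18.1 against 1817 and 1387 CPM. Sfrp2, a secreted Wnt modulator, had 1.996 and 1.35 against 202 and 214 CPM, and Dpt (dermatopontin) had 1.77 and 2.63 against 311 and 191 CPM. In each of these the 2 libraries of a side were alike and the sides far apart. Of 44 collagen genes, 25 were higher in P0 Emcn-, and the 1 called higher in P0 Emcn+, Col25a1, was at or below 0.3803 CPM in all 4 libraries and lost its call without any 1 of them (adjusted p 0.0648 to 0.387). Col3a1 had 44.3 and 70.7 CPM in P0 Emcn+ against 4937 and 4005 CPM in P0 Emcn-, and Col6a2 had 19.7 and 14.5 against 1466 and 1231 CPM.

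Genes of lineages that arise from marrow stroma lay in part on the same side. Adipocyte genes were higher in P0 Emcn- in 11 of 14. Lpl, lipoprotein lipase, had 24.6 and 23.6 CPM in P0 Emcn+ against 1165 and 1863 CPM in P0 Emcn-, and Cfd (adipsin) had 1.93 and 0.541 against 54.5 and 32.4 CPM. Osteolineage genes were higher in P0 Emcn- in 9 of 16, a count that ran from 6 to 12 as libraries were left out. Runx2, the regulator of bone formation, had 2.57 and 1.39 against 42.3 and 34.1 CPM, and Alpl, the alkaline phosphatase of mineralization, had 0.412 and 0.193 against 7.17 and 11.9 CPM. Runx2 was stable across replicates, with a log2 fold change of -4.26 (SE 0.24). Contractile and mural genes split, with 10 of 21 higher in P0 Emcn- and 5 in P0 Emcn+, and the 10 fell to 6 without P0 Emcn+ replicate 1. Notch3, the NOTCH receptor of mural cells, had 3.49 and 3.71 CPM in P0 Emcn+ against 146 and 75.4 CPM in P0 Emcn-, and Cspg4 (NG2) had 1.05 and 1.7 against 60.1 and 31.9 CPM. Kcnj8 and Abcc9, the pore and regulatory subunit of a potassium channel that mural cells use, went the other way. The study lists both as markers of sinusoidal or venous endothelium and Kcnj8 also as a tip cell marker, so they are not particular to mural cells. Kcnj8 had 206 and 102 against 3.47 and 0.303 CPM and Abcc9 had 268 and 196 against 9.09 and 4.64 CPM. Of the defining mural markers, Acta2 (smooth muscle actin) had 7.003 and 29.9 against 89.1 and 62.2 CPM. Its log2 fold change of -2.21 became -1.16 without P0 Emcn+ replicate 1 and was -1.44 without P0 Emcn- replicate 1, both under the fold limit, while Myh11 and Rgs5 stayed at or below 2.92 and 2.12 CPM. Marrow niche genes were higher in P0 Emcn- in 8 of 16 and in P0 Emcn+ in 2. Nes (nestin) had 372 and 381 CPM in P0 Emcn+ against 19.2 and 3.23 CPM in P0 Emcn-, and Bmp4 had 61.5 and 104 against 1.49 and 4.84 CPM.

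Genes of ligands and of receptors were called in both directions. Of 61 ligands, 19 were higher in P0 Emcn+ and 25 in P0 Emcn-, and of 68 receptors, 23 and 22. Both ligand counts fell whichever library was left out. The count of receptors higher in P0 Emcn+ fell most without P0 Emcn+ replicate 1. The pairs named here, beyond the leading members of each list, were chosen after their values were seen. Angpt2, the angiopoietin that destabilizes vessels, had 1769 and 2291 CPM in P0 Emcn+ against 28.8 and 6.56 CPM in P0 Emcn-. Angpt1, the activating ligand of the same receptor, had the opposite distribution with 2.22 and 1.82 against 46.8 and 41.2 CPM. Their receptor gene Tek was higher in P0 Emcn+ (log2 fold change 2.21, SE 0.35). Of the VEGF family, 3 ligand genes were higher in P0 Emcn-, the receptor genes Kdr and Flt4 were higher in P0 Emcn+, and Flt1, given above, was not called. Vegfd had 3.01 and 9.74 CPM in P0 Emcn+ against 214 and 721 CPM in P0 Emcn-, Vegfa had 49.5 and 19.3 against 177 and 164 CPM, and Vegfc had 3.26 and 3.25 against 19.4 and 35.4 CPM. Kdr, the main VEGF receptor, had 587 and 288 against 14.8 and 1.82 CPM, and Flt4, the receptor of VEGF-C and VEGF-D, had 808 and 483 against 11.8 and 1.31 CPM. Pgf, a placental VEGF relative that binds VEGFR1, differed from its family with 546 and 425 CPM in P0 Emcn+ against 15.2 and 2.62 CPM in P0 Emcn-.

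Further ligand and receptor genes were chosen in the same way, some with a partner on the other side and some on the same side. Cxcl12, the chemokine that retains blood stem cells, had 217 and 407 CPM in P0 Emcn+ against 2541 and 1858 CPM in P0 Emcn-, while its receptor Cxcr4 had 339 and 178 against 8.99 and 0.908 CPM. Cxcl12 was not called without P0 Emcn+ replicate 1 (adjusted p = 0.057). Hgf, hepatocyte growth factor, had 2.503 and 2.09 against 29.3 and 43.8 CPM and its receptor Met 78.97 and 85.8 against 14.6 and 12.4 CPM. Edn1 (endothelin-1) had 329.9 and 687 CPM in P0 Emcn+ against 11.2 and 24 CPM in P0 Emcn-, and its receptor Ednra had 1.43 and 1.47 against 54.8 and 29.8 CPM. Pdgfb, which recruits mural cells, had 216 and 188 against 9.21 and 1.82 CPM, but lost its call when any of the 4 libraries was left out (adjusted p 0.063 to 0.175). Its receptor Pdgfrb had 16.2 and 9.82 CPM in P0 Emcn+ against 1077 and 537 CPM in P0 Emcn-. The repulsive guidance ligands Slit2 and Slit3 had 3.42 and 2.71 against 191 and 93.5 CPM and 3.36 and 11.7 against 572 and 902 CPM. The NOTCH ligands Dll4, Dll1 and Jag2 were all higher in P0 Emcn+, as was the receptor gene Notch4, given below with the arterial genes. Dll1 had 35.4 and 43.2 against 1.59 and 0.403 CPM and Jag2 had 25.1 and 18.7 against 0.7805 and 0.303 CPM, while Dll4, with 270.1 and 119 against 8.41 and 0.403 CPM, was not called without P0 Emcn+ replicate 1 (adjusted p = 0.0733). Among growth factors of stroma, Fgf7 and Fgf10, both of which act on epithelia, had 1.204 and 1.66 against 57.03 and 116 CPM and 0.158 and 1.08 against 12.5 and 74.03 CPM. Egfr, the EGF receptor, had 4.69 and 9.86 against 386 and 647 CPM and Ephb3, a receptor of ephrin-B ligands, had 0.507 and 0.348 against 50.5 and 41.96 CPM.

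Signalling genes inside the cell were called mostly higher in P0 Emcn+, and adhesion genes divided. Of 29 genes of endothelial G protein signalling, 17 were higher in P0 Emcn+ and 5 in P0 Emcn-, and of 29 regulators of small GTPases, 17 and 4. Adgrf5, an adhesion receptor, had 2081 and 2232 CPM in P0 Emcn+ against 50.4 and 10.7 CPM in P0 Emcn-. The proton-sensing receptor Gpr4 had 35.3 and 55.6 against 0.755 and 0.202 CPM, and F2rl3, which encodes thrombin receptor PAR4, had 77.3 and 41.8 against 1.59 and 0.101 CPM. S1pr3, a sphingosine-1-phosphate receptor, was on the other side, with 4.31 and 2.94 against 171 and 188 CPM. Rasip1, a RAP1 effector needed for vessel lumens, had 313 and 292 CPM in P0 Emcn+ against 7.704 and 0.101 CPM in P0 Emcn-, and Fgd5, an exchange factor for CDC42, had 316 and 295 against 7.35 and 0.908 CPM. Tiam1, an exchange factor for RAC, was higher in P0 Emcn-, with 1.08 and 1.74 against 14.4 and 14.02 CPM. Integrins parted by subunit, 8 of 27 higher in P0 Emcn+ and 5 in P0 Emcn-. Itga3, a laminin-binding subunit, had 400.1 and 471 against 13.4 and 3.63 CPM, and Itgb3 had 927 and 931 against 40.8 and 20.4 CPM. Itga11, which binds fibrillar collagen, had 2.503 and 0.8502 CPM in P0 Emcn+ against 159.9 and 47.6 CPM in P0 Emcn-. Laminin chains parted likewise within the basement membrane list (4 higher in P0 Emcn+, 4 in P0 Emcn-, of 23, with the latter at 2 without P0 Emcn- replicate 1). Lama5 had 546 and 532 CPM in P0 Emcn+ against 36.1 and 7.87 CPM in P0 Emcn-, and Lama2 had 3.803 and 8.89 against 520.2 and 464 CPM.

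Called complement genes lay mainly on the P0 Emcn- side. Of 23 complement genes tested, 14 were higher in P0 Emcn- and 2 in P0 Emcn+. C3, the central component, had 17.5 and 59.9 CPM in P0 Emcn+ against 2011 and 7353 CPM in P0 Emcn- (a log2 difference of -6.86, SE 0.31, adjusted p = 4.55e-06). C1s1, a protease of the classical pathway, had 8.53 and 16.9 against 712 and 1603 CPM, and Serping1, the inhibitor of that protease, had 13.8 and 26.1 against 763 and 1813 CPM. Replicate 2 was the higher library of P0 Emcn- for each. The 2 genes on the P0 Emcn+ side encode surface inhibitors of complement, Cd59a with 24.5 and 20.3 against 1.81 and 1.51 CPM and Cd55 with 33.97 and 63.1 against 4.003 and 18.4 CPM, the latter with a log2 fold change of 2.46 that was 1.97 (adjusted p = 0.0553) and not called without P0 Emcn- replicate 1. Coagulation and fibrinolysis split, 9 of 22 higher in P0 Emcn+ and 4 in P0 Emcn-. F8, coagulation factor VIII, had 217 and 187 CPM in P0 Emcn+ against 6.496 and 5.35 CPM in P0 Emcn- (a log2 difference of 5.11, SE 0.18). F3, tissue factor, the starter of clotting outside vessels, had 1.36 and 0.309 against 141 and 62.3 CPM. Of 24 genes of scavenger receptors, endocytosis and lysosomes, 7 were higher in P0 Emcn+ and 2 in P0 Emcn-. Lyve1, a hyaluronan receptor, had 113 and 299 CPM in P0 Emcn+ against 3.62 and 4.64 CPM in P0 Emcn-, and Stab1 had 1883 and 1768 against 70.8 and 56.6 CPM but was not called without replicate 1 of P0 Emcn+ or replicate 2 of P0 Emcn- (adjusted p of 0.0937 and 0.096). Lrp1, a broad endocytic receptor, had the opposite distribution, with 172 and 186 against 7073 and 5489 CPM, as had the collectin Colec12 with 154 and 99.05 against 778 and 500.5 CPM.

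The Hox genes, which record position along the body, were divided by chromosomal cluster, a split looked at after the values of the family had been seen. All 8 tested genes of the Hoxb cluster (chromosome 11) were higher in P0 Emcn+ and none lower. Of 9 tested Hoxc genes (chromosome 15), 8 were higher in P0 Emcn- and none in P0 Emcn+. The summed level of the Hoxb genes was 266 and 169 CPM in P0 Emcn+ against 12.03 and 13.5 CPM in P0 Emcn-. That of the Hoxc genes was 2.47 and 2.55 CPM in P0 Emcn+ against 127 and 143 CPM in P0 Emcn-. Neither sum overlapped between the sides, the Hoxb sum of P0 Emcn+ was higher in replicate 1 than in replicate 2, and each cluster was low on the side where the other was high. Hoxb8 had 69.2 and 32.1 CPM in P0 Emcn+ against 1.79 and 0.504 CPM in P0 Emcn- (a log2 difference of 5.37, SE 0.67). Hoxc10, of a hindlimb and trunk domain, had 0.602 and 0.889 against 48.04 and 44.4 CPM (log2 fold change -5.93, SE 0.23, adjusted p = 3.11e-06). None of the 16 called genes of these clusters lost its call when a library was left out. In the Hoxd cluster (chromosome 2) 4 of 7 were higher in P0 Emcn+, each of which lost its call without replicate 1 of either side. Hoxd8 had 57.5 and 48.1 against 10.6 and 14.02 CPM and an adjusted p of 0.00466, or 0.0543 and 0.0512 without replicate 1 of P0 Emcn+ and of P0 Emcn-. In the Hoxa cluster (chromosome 6) 2 of 11 were higher in P0 Emcn-, Hoxa10 with 5.61 and 4.37 against 22.8 and 42.8 CPM and Hoxa11 with 0.317 and 0.232 against 5.19 and 2.62 CPM, the latter not called without replicate 1 of P0 Emcn+ (adjusted p = 0.0513) or of P0 Emcn- (0.0579). Hoxa3, Hoxa5 and Hoxa7 were expressed on both sides, and Hoxa5 had 11.98 and 11.6 against 7.1 and 14.02 CPM with a 95% interval of the log2 fold change from -0.34 to 0.86.

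**Figure D4:**
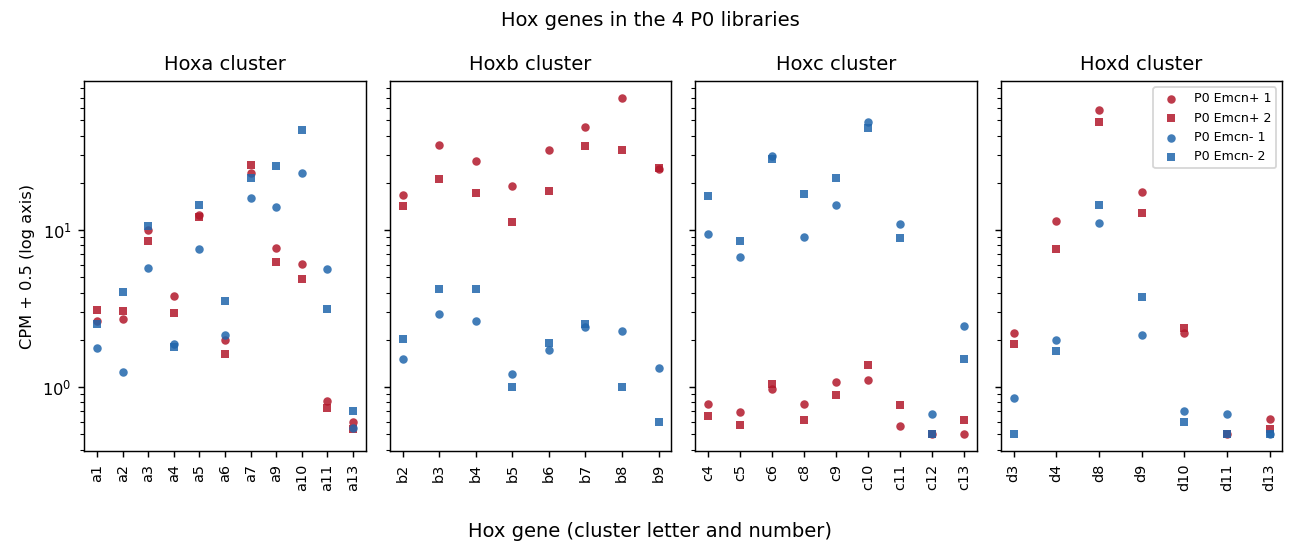
CPM plus 0.5 on a log axis for each tested Hox gene, in a panel per cluster, with red for P0 Emcn+ and blue for P0 Emcn- and circles and squares for replicates 1 and 2. Red points lie above blue ones across the Hoxb panel and below them for 8 of 9 genes of the Hoxc panel.

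Imprinted genes, which are used from a single parental copy, were called higher in P0 Emcn- in 8 of 21 and higher in P0 Emcn+ in 1. Dlk1, a NOTCH-like surface protein of stromal progenitors, had 0.285 and 2.01 CPM in P0 Emcn+ against 45.4 and 896 CPM in P0 Emcn-. Its neighbours on chromosome 12, the non-coding RNA genes Meg3 and Rian, had 1.81 and 7.42 against 155 and 1739.7 CPM and 0.887 and 2.59 against 78.2 and 465 CPM. Mirg, the most distal, rested on 2 counts in P0 Emcn+ and had 2.17 and 15.03 CPM in P0 Emcn-. In GRCm38 these genes lie from 109452823 (start of Dlk1) to 109749460 (end of Mirg) on the plus strand. All 4 were several times higher in P0 Emcn- replicate 2 than in replicate 1 and higher in both than in P0 Emcn+. H19, on chromosome 7, had 5.23 and 11.5 against 243 and 1907 CPM, while its neighbour Igf2 was not called, with 4.31 and 2.09 against 4.36 and 25.1 CPM (adjusted p = 0.0747, or 0.028 and a call without the replicate block). Mest was the exception in direction, with 350.3 and 176 CPM in P0 Emcn+ against 9.01 and 3.23 CPM in P0 Emcn-, and was not called without replicate 1 of P0 Emcn+ or replicate 2 of P0 Emcn- (adjusted p of 0.125 and 0.0644).

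Proliferation genes were seldom called between the sides, while the P0 Emcn- libraries stood far apart in them. None of 39 genes of G2 and M phase was called by edgeR, none had an unadjusted p under 0.05, and DESeq2 called 1. Of 36 genes of S phase 2 were called higher in P0 Emcn+, Fen1 and Cdc6, while 16 had an unadjusted p under 0.05 and DESeq2 called 6. Neither Fen1 nor Cdc6 was called in the fit without the replicate block. Mki67, the proliferation antigen, had 240.1 and 261 CPM in P0 Emcn+ against 478 and 15.5 CPM in P0 Emcn-. Top2a, the topoisomerase of dividing cells, had 194 and 182 against 285 and 28.8 CPM, and Ccnb1, a mitotic cyclin, had 29.3 and 29.8 against 78 and 4.03 CPM. In batch d each of the 39 G2 and M genes had more CPM in the P0 Emcn- library, and in batch a each had more in the P0 Emcn+ library. The median ratio of P0 Emcn- replicate 1 to replicate 2 was 16.2 (range 1.61 to 43.9), against 0.952 (0.652 to 1.22) between the P0 Emcn+ replicates. For S phase genes the median ratio was 3.46 in P0 Emcn- and 1.01 in P0 Emcn+. The counts depended on the library left out. Without P0 Emcn+ replicate 1, 37 of the 39 G2 and M genes were called higher in P0 Emcn+. Without P0 Emcn- replicate 1 the count was 7, and without P0 Emcn+ replicate 2, 5 were called higher in P0 Emcn-. For S phase the counts higher in P0 Emcn+ were 17 and 14 without replicate 1 of P0 Emcn+ and P0 Emcn-, and 0 without replicate 2 of either. Of the 13 expressed genes with opposite ratios beyond 1.5, several belong to mitosis, among them Ccnb2 with 17.4 and 26.6 against 70.4 and 3.23 CPM and Kif20a with 35.7 and 44.1 against 131 and 5.85 CPM. Of the others, Ncam1, a neural adhesion molecule, had 11.8 and 58.8 CPM in P0 Emcn+ against 56.1 and 9.18 CPM in P0 Emcn-, and the proprotein convertase Pcsk6 had 78.3 and 20.02 against 8.81 and 81.7 CPM. Cholesterol synthesis genes were also higher in P0 Emcn- replicate 1 than in replicate 2, by a median 3.47-fold over 23 genes. Without P0 Emcn- replicate 2, 6 of them were called higher in P0 Emcn-. The part of depth or of batch in this spread was not tested.

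**Figure D5:**
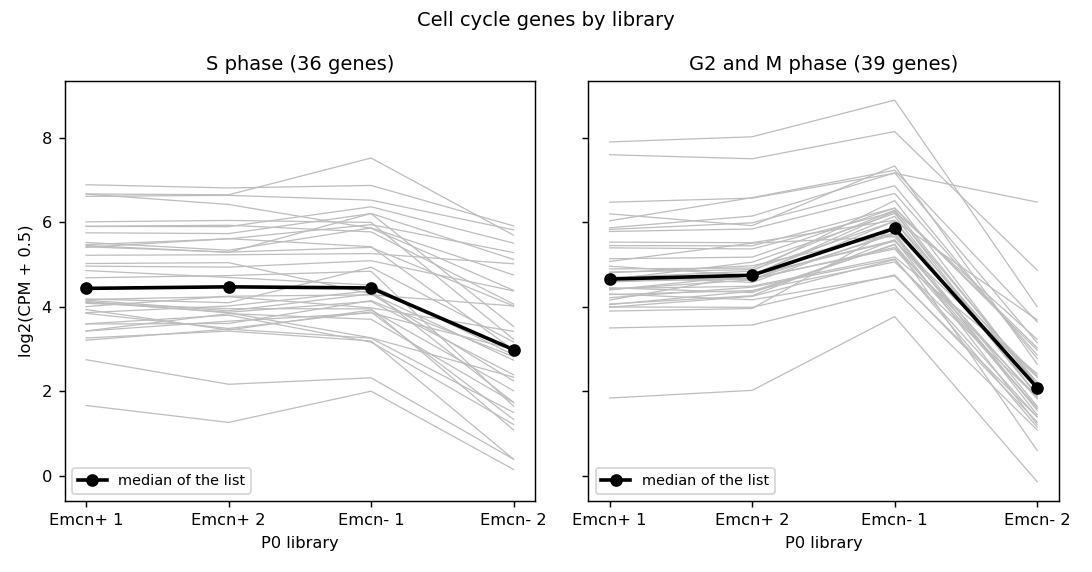
Log2 of CPM plus 0.5 for genes of S phase (36) and of G2 and M phase (39) in the 4 P0 libraries, with a grey line per gene and the median in black. The medians of the P0 Emcn+ libraries are level, P0 Emcn- replicate 1 is the highest library for G2 and M genes, and P0 Emcn- replicate 2 is the lowest for both lists.

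Few genes of core metabolism were called. Of 40 genes of oxidative phosphorylation, 1 was called (Ndufa4, higher in P0 Emcn- with a log2 fold change of -1.96, or -1.43 and no call without P0 Emcn+ replicate 1), and of 22 glycolysis genes, 1 was called higher in P0 Emcn+ and 2 in P0 Emcn-, or 3 and 3 without P0 Emcn- replicate 1. Pfkfb3, an activator of glycolysis in sprouting vessels, had 80.1 and 76.9 CPM in P0 Emcn+ against 22.9 and 10.99 CPM in P0 Emcn-. Eno2, an enolase, had 1.204 and 0.8502 against 68.8 and 43.3 CPM (log2 fold change -5.72, SE 0.17), and the hexokinase Hk2 had 13.9 and 8.85 against 72.1 and 28.9 CPM. Some levels stayed close between the sides. Mcm4, a replication helicase subunit, had a 95% interval of the log2 fold change from -0.48 to 0.48, and Nr2f2, a venous transcription factor that stroma also uses, had 76.2 and 62.9 against 74.6 and 65.1 CPM with an interval from -0.74 to 0.79. Of 38 interferon-response genes, 4 were higher in P0 Emcn+ and 1 in P0 Emcn-. Gbp4, a guanylate-binding protein, had 28.1 and 12.3 against 0.7805 and 0.908 CPM, Bst2 (tetherin) had 241 and 208 against 73.2 and 53.5 CPM, and Oas2 had 2.06 and 2.67 against 25.4 and 32.2 CPM. Irf1, the interferon regulatory factor, had 47.7 and 48.3 against 44.1 and 53.8 CPM with an interval from -0.51 to 0.51. Of 20 immediate early and heat shock genes, Atf3 was higher in P0 Emcn+ and Egr2, Egr3 and Nr4a1 in P0 Emcn-. Without P0 Emcn+ replicate 1 the latter count was 7, and Nr4a1 was not called without replicate 2 of P0 Emcn+ (adjusted p = 0.153) or of P0 Emcn- (0.165). Egr2 had 0.665 and 1.35 CPM in P0 Emcn+ against 42.2 and 72.9 CPM in P0 Emcn-.

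Genes of macrophages and leukocytes, which the CD45- gate should remove, were present at low levels on both sides. The summed level of the 20 listed genes was 1091 and 945 CPM in P0 Emcn+ against 384 and 425 CPM in P0 Emcn-. Ptprc, which encodes CD45, had 7.73 and 4.02 against 3.75 and 2.62 CPM, Adgre1 (F4/80) had 15.6 and 13.8 against 6.37 and 6.46 CPM and Csf1r had 19.96 and 25.04 against 9.16 and 12.4 CPM, none of them called. Of the list, 4 genes were called in favour of P0 Emcn+ and none of P0 Emcn- (12 and 0 at an unadjusted p under 0.05, 4 and 0 by DESeq2), and the 4 became 2 without either P0 Emcn+ library and 1 without P0 Emcn- replicate 1. Cd14, a coreceptor for bacterial lipid, had 56.3 and 98.1 CPM in P0 Emcn+ against 5.09 and 4.54 CPM in P0 Emcn- and kept its call each time. The part of such cells in the differences given here was not tested. The X-linked Xist and Y-linked genes such as Ddx3y were detected in all 4 libraries, and none of 5 such genes was called by edgeR, by DESeq2 or at an unadjusted p under 0.05, with 476 and 647 against 674 and 1093 CPM for Xist and 75.99 and 27.7 against 44.8 and 28.9 CPM for Ddx3y.

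The marker lists of the study, which its text describes as taken from the literature, were read for completeness. Sinusoidal genes were higher in P0 Emcn+ in 17 of 20 and tip cell genes in 26 of 27 (17 without P0 Emcn+ replicate 1), with none in P0 Emcn-. Stalk cell genes were higher in P0 Emcn- in 6 of 8. Arterial genes divided, 10 of 18 higher in P0 Emcn+ and 7 in P0 Emcn-. Members that led on the P0 Emcn+ side were Sox18, Sox17 and Notch4, the endothelial NOTCH receptor, with 926 and 744 against 23.9 and 6.96 CPM. On the P0 Emcn- side, Fbln2 and Ltbp4, both of the extracellular matrix, had 31.3 and 50.4 against 3230.1 and 1987 CPM and 3.26 and 12.5 against 27.9 and 129.7 CPM, and Ace, the angiotensin-converting enzyme, had 114 and 339 against 1981 and 2886 CPM.

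Large gene families, found by symbol, were counted as well, and their members named here were chosen after their values were seen, from the called genes at higher levels. Of 265 solute carriers tested, 33 were higher in P0 Emcn+ and 44 in P0 Emcn-. Slc22a23, an orphan carrier, had 156 and 125 CPM in P0 Emcn+ against 2.67 and 0.403 CPM in P0 Emcn-, and Slc36a2, an amino acid carrier, had 0.254 and 0.116 against 10.8 and 14.3 CPM. Zinc finger genes named Zfp had few calls, 8 and 20 of 384, beside shares of 8.00% and 11.4% among all genes tested. Rab GTPases had 1 and 10 calls of 69, few only in the direction of P0 Emcn+. ADAMTS proteases were higher in P0 Emcn- in 12 of 23 and in P0 Emcn+ in 4. Adamts15 had 3.83 and 3.21 against 556 and 302 CPM and Adamts7 had 326 and 392 against 45.8 and 12.8 CPM. Cytochromes P450 were higher in P0 Emcn- in 8 of 33, with Cyp4b1 alone on the P0 Emcn+ side. Cyp1b1, which metabolizes steroids and retinoids, had 22.3 and 22.1 CPM in P0 Emcn+ against 957 and 1515 CPM in P0 Emcn-, and Cyp7b1, an oxysterol hydroxylase, had 0.856 and 1.12 against 88.5 and 46.2 CPM. Serpins were higher in P0 Emcn- in 15 of 37 and in P0 Emcn+ in 5 (3 without replicate 1 of either side). Serpina3n, whose reads may be shared with close copies of the gene, had 23.04 and 74.4 against 2083 and 1881 CPM, and Serpinb6b had 47.1 and 67.8 against 1.21 and 0.101 CPM. Aldehyde dehydrogenases were higher in P0 Emcn- in 6 of 19 (8 by DESeq2) and in P0 Emcn+ in none by either tool or at an unadjusted p under 0.05. Aldh1a1, which makes retinoic acid and whose reads may also be shared with a close copy, had 1.58 and 7.27 against 108 and 224 CPM. Semaphorins and plexins divided, 11 and 7 of 30, with Sema3g, a guidance factor of vessels, at 326 and 155 against 10.4 and 0.706 CPM and Sema3b at 1.11 and 1.93 against 25.4 and 27.03 CPM.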

How the data were processed

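RNA of sorted cells was sequenced by the authors, who, per the methods and labels, mapped trimmed reads to GRCm38 with STAR and estimated transcript abundance with Salmon for an Ensembl annotation. They deposited gene-level estimated counts as whole numbers without normalization, and the whole numbers were used as counts. CPM was computed on library totals.

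Genes were tested in R 4.3.3 with edgeR 4.0.16 (TMM factors, filterByExpr with minimum count 10 and total 15, quasi-likelihood test, Benjamini-Hochberg adjustment) on all 15 libraries, with 1 coefficient per group and 2 batch terms as replicate block (5 residual and 3.06 prior degrees of freedom). The labels give same-numbered P0 libraries 1 batch, and their deviations from the group means correlated by 0.139 across genes. Replicates differed by more than counting noise. The fit was tested on simulated data with the same spread beyond counting noise for every gene and group. The real P0 Emcn- replicates lay further apart than those of P0 Emcn+, so the simulation is no check of the fit at their spread.

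Members and gene lists were chosen with earlier results of these data known. Named are the 5 sorting and lineage markers, the 12 called genes per direction with the largest log2 fold change, at least 10 CPM in both libraries of the higher side and a within-batch log2 ratio beyond 1.5 in both batches, up to 4 called genes per list and direction, the least reduced endothelial genes, genes of opposite ratios and unchanged genes with intervals. Other names were chosen after their values were seen, and some genes that the rule names are not reported here. Coordinates come from GENCODE M21 and promoters from RefSeq on GRCm38.p6. Of the lists' symbols, 1 was not matched. Alternatives were no block, the 4 P0 libraries alone, DESeq2 1.42.0 with and without ashr 2.2.63, RLE factors, other filters and fold limits, and each library left out.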

Additional observations from a re-analysis of the deposited data

How the results depend on the processing

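The counts of genes called higher in P0 Emcn+ (1552) and in P0 Emcn- (2220) stayed within 1.5 times under all alternatives but 1. Without a fold change limit they were 3396 and 3850. Without the replicate block they were 1512 and 2213, and 1465 and 2117 of the called genes were called in both fits. With the 4 P0 libraries alone and the block (1 residual degree of freedom) they were 1350 and 1595, with DESeq2 1477 and 2151, with DESeq2 and ashr without the block 1335 and 1982, with RLE factors 1594 and 2168, without a filter 1483 and 2106, with at least 50 counts in 2 libraries 1294 and 1834, and with a fold limit of 1 on the log2 scale 2071 and 2724. Leaving out 1 library gave 1275 to 1457 and 1841 to 2122, where the lone library of a side is assumed to vary like the other groups. The number of expressed genes was 13514 at 1 CPM, 9908 at 10 CPM and 11173 with TMM-scaled totals. Direction turned under some alternative for 17 of the 179 named genes, none of them called with all libraries. Their log2 fold changes over the 4 omissions of 1 library were Ccnb1 (-1.26 to 2.73), Ccnb2 (-1.77 to 2.65), Ddx3y (-0.35 to 1.06), Flt1 (-1.27 to 2.37), Hoxa3 (-0.18 to 0.80), Hoxa5 (-0.24 to 0.81), Irf1 (-0.28 to 0.35), Kif20a (-1.56 to 2.44), Mcm4 (-0.39 to 0.40), Mki67 (-0.53 to 3.57), Ncam1 (-1.70 to 2.31), Nr2f2 (-0.059 to 0.13), Pcsk6 (-1.55 to 2.64), Ramp2 (-0.25 to 1.84), Top2a (-0.39 to 2.56), Vwf (-0.19 to 1.90), Xist (-1.09 to 0.053). Kif20a and Ccnb2 were called higher in P0 Emcn- without P0 Emcn+ replicate 2 and higher in P0 Emcn+ without P0 Emcn+ replicate 1. Direction also turned without the block for Kif20a (-0.77), Mcm4 (-0.075), Flt1 (-0.095), Ccnb2 (-0.74), Ccnb1 (-0.46), with DESeq2 and ashr without the block for Kif20a (-0.19), Mcm4 (-0.023), Flt1 (-0.0083), Ccnb2 (-0.18), Ccnb1 (-0.10), and at 50 counts in 2 libraries for Irf1 (-0.028), Mcm4 (-0.026), Nr2f2 (-0.0050). Without the block, 3 named genes lost and 1 gained a call (Fen1, Cdc6 and Col25a1, and Igf2), and the block changed no other call among them. Leaving out P0 Emcn+ replicate 1 lost the most calls of named genes, with 17 against 7 to 11 for the other libraries. The cause was not tested.

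With 2 libraries a side, P0 Emcn- replicate 2 is the shallowest, and genes near or below 0.303 CPM cannot be told from a count of 0 there. Each batch holds 1 library of each side, so the differences within a batch have no replicate check. The Tie2 promoter that marked the cells and the sort by Emcn set what both sides can contain.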

Other observations

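Further gene families divided between P0 Emcn+ and P0 Emcn- cells, with the members named chosen after their values were seen. Of 79 cadherins and protocadherins tested, edgeR called 16 in the direction of P0 Emcn+ and 11 in that of P0 Emcn-, and the 16 became 9 without P0 Emcn+ replicate 1 or without P0 Emcn- replicate 2, and the 11 became 7 without P0 Emcn- replicate 1. Pcdh12, a protocadherin of endothelial junctions, had 212 and 164 CPM in P0 Emcn+ replicates 1 and 2 and 6.34 and 1.51 CPM in P0 Emcn-. Cdh11, the cadherin of mesenchymal cells, had 9.95 and 6.07 against 228 and 375 CPM. Because both were picked by their values, the gap between the sides is no further finding. Of 28 chemokines, 11 were higher in P0 Emcn- and 2 in P0 Emcn+, with the 11 at 7 without P0 Emcn+ replicate 1 and the 2 at 0 without replicate 2 of either side. Ccl2, a monocyte attractant, was 1 of the 2 and had 349.6 and 700.3 CPM in P0 Emcn+ against 136 and 64.8 CPM in P0 Emcn-. Cxcl14, found in stroma, had 1.08 and 0.232 against 19.2 and 18.6 CPM.

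Of 29 members of the TNF and TNF receptor families, 8 were higher in P0 Emcn+ and 5 in P0 Emcn-, the 5 falling to 1 when replicate 1 of either side or P0 Emcn+ replicate 2 was left out. Tnfsf11, which encodes RANKL, the osteoclast factor, was high in P0 Emcn- replicate 1 alone, with 0.0951 and 0.0386 CPM in P0 Emcn+ against 32.2 and 0.908 CPM in P0 Emcn-. Tnfrsf11b, which encodes its decoy receptor osteoprotegerin, had 0.507 and 0.734 against 4.51 and 5.04 CPM. Ephrins and their receptors gave 6 and 7 calls of 19. Efnb2, the arterial ephrin, had 218 and 125 CPM in P0 Emcn+ against 20.1 and 16.1 CPM in P0 Emcn-, while the receptor gene Ephb2 had 0.982 and 1.12 against 52.2 and 64.5 CPM. Ephb4, a venous receptor of the same ligand class, was on the side of Efnb2, with 300.5 and 279 against 74.8 and 91.5 CPM. Potassium channel genes gave 13 and 14 calls of 60, the 14 falling to 9 without P0 Emcn+ replicate 1. Kcne3, a channel subunit, had 149 and 40.7 CPM in P0 Emcn+ against 2.64 and 0 CPM in P0 Emcn-, and Kcnab1 had 0.3803 and 1.55 against 19.6 and 53.6 CPM. Zfp366, a zinc finger gene known from dendritic cells and vessels, had 40.3 and 27.6 CPM in P0 Emcn+ against 0.906 and 0 CPM in P0 Emcn-, whereas Zfp503 had 9.92 and 8.43 against 102 and 112 CPM.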
